A study of Mus musculus with 8 samples.

Results

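The IGF-binding proteins Igfbp2, Igfbp3, Igfbp4, Igfbp5, Igfbp6 and Igfbp7, the ligand Igf1 and the receptor Igf1r were examined across thymic epithelial cells (TEC) by development and lineage. These 8 genes were chosen by name, with earlier results of these data known, and all 8 were found among the 27514 genes listed in both deposited data sets. Messenger RNA was counted in single cells by droplet capture, where a unique molecular identifier (UMI) marks each captured transcript. The 8 libraries came from WT C57 B6 (CD45.2) mice and from the thymus. Total TEC sorted as DAPI- EpCAM+ CD45- were collected at E13.5, where E stands for embryonic day. Cortical TEC (cTEC) with the added gate Ly51+ UEA-1- were collected at E15.5, E17.5, in newborn (NB) and in adult mice. Medullary TEC (mTEC) with the added gate Ly51- UEA-1+ were collected from adult mice. The sort gate changed between E13.5 and E15.5, so gate and stage cannot be told apart at that step or in slopes that include E13.5. Each age before the adult had 1 library, and adult cTEC and adult mTEC had 2 each. E13.5, E15.5, NB and the first replicate of each adult sort belonged to data set 1, and E17.5 and the second replicates to data set 2. Per the study's methods the adults were some weeks old and of either sex. The labels do not say whether replicate libraries came from separate mice, so p-values concern libraries and cannot be read as spread between mice. Per the study's methods, embryonic thymi were dissociated with trypsin and NB and adult thymi with Liberase followed by a Percoll gradient, so dissociation and the step from fetal to NB stages cannot be told apart, while NB and adult cells shared one protocol.

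Insulin-like growth factors are secreted peptides that act through Igf1r, a receptor tyrosine kinase that signals to growth, survival and protein synthesis. Most of the ligand outside the cell is held by IGF-binding proteins, which limit, store or deliver it according to the tissue and to the proteases that cut them. In the thymus, IGF signalling is known to be among the endocrine and local cues that influence the size of the epithelial compartment.

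In brief, 3 patterns stood out among the members. Igfbp7 is a relative of the family with low affinity for IGFs that is best known from vessels and senescent cells. It was higher in adult cTEC than in any earlier library or in adult mTEC. Its slope over stage passed the test described below, but not without adult cTEC replicate 1 or with a term for dissociation. Igfbp2 and Igfbp3 were also higher in adult cTEC than in adult mTEC, and Igf1 and Igfbp6 were higher in adult mTEC. Within adult mTEC, Igfbp4 was highest in the mTEC I-like clusters, which express the chemokine Ccl21a, and Igf1 was near its lowest there and high in mTEC III-like cells.

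Proximal promoters of 3 members are shown because Igfbp4 and Igfbp5 were at high levels in the same medullary clusters and Igfbp7 was the member called in both fits described below. Each sequence is the 250 bases before the annotated start, 5′ to 3′ on the strand of the gene, from RefSeq (GRCm38.p6), whose starts can differ by some bases from those of the GENCODE genes given below. Capitals mark matches, on either strand, to the TATA box letters TATAAA or the GC box letters GGGCGG.
Igfbp4, chr11:99040994-99041243, plus strand: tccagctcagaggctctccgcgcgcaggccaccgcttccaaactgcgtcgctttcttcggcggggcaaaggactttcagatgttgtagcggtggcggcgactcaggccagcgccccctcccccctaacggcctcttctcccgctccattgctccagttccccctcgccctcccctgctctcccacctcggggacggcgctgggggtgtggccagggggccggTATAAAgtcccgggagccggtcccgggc
Igfbp5, chr1:72874866-72875115, minus strand: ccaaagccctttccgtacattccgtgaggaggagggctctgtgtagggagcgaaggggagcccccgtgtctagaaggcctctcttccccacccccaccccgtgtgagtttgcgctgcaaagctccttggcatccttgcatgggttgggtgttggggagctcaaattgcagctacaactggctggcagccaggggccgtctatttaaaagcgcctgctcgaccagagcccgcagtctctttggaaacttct
Igfbp7, chr5:77408046-77408295, minus strand: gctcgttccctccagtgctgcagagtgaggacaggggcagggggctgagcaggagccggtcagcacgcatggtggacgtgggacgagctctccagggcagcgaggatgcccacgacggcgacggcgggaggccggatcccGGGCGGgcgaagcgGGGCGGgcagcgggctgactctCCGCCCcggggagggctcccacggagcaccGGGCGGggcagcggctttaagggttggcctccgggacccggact
The Igfbp4 window held TATAAA from 28 to 23 bases before the start, a match found in 12.4% of 32851 promoter windows of the same length. The Igfbp7 window held 4 matches to GGGCGG, which occurred at least once in 32.7% of windows. The Igfbp5 window held neither, and none of the 3 windows held the AP-1 letters TGANTCA, present in 6.75% of windows. In the GENCODE annotation of GRCm38, Igfbp2 (chr1:72824503-72852474, plus strand) and Igfbp5 (chr1:72857932-72874884, minus strand) were neighbours 5457 bases apart that converge on each other. Igfbp4 lay at chr11:99041244-99054392 on the plus strand and Igfbp7 at chr5:77349240-77408041 on the minus strand. The RefSeq window of Igfbp5 therefore runs into the GENCODE gene.

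Of 28334 deposited barcodes, 25750 had at most 5% mitochondrial UMIs and at most 5000 genes, the limits given in the study's methods. Clusters that carried markers of another cell class were left out, and 24072 epithelial-like cells remained, from 493 in adult cTEC replicate 1 to 6987 at E17.5. Those cells held from 2158499 UMIs in adult cTEC replicate 1 to 76469989 at E17.5, and their median was 3955 to 11388.5 UMIs per cell. The cells left out were 124 parathyroid-like cells at E13.5 and 7 at E15.5, 166 thymocyte-like droplets in NB and 14 in adult cTEC replicate 1, 1363 haemoglobin-high cells at E17.5, of which 98.1% had a Psmb11 and 99.3% a Prss16 UMI, and at most 2 cells in each of the other adult libraries. Markers were set against the labelled sorts. All 7 epithelial genes and all 9 cTEC genes of the lists used had UMIs in each library, and the cTEC genes summed to 13295 to 30445 CPM (UMI counts scaled to a common library total) in the 5 cTEC libraries, 2439 CPM at E13.5 and 1608 to 1896 CPM in adult mTEC. Adult cTEC replicate 1 stood apart from replicate 2 by its mTEC I genes, which summed to 6400 CPM against 1424 CPM, mostly from the chemokine Ccl21a. By this list it lay between the adult mTEC libraries, at 8368 and 4022 CPM, so its label held on the cTEC genes and not on these. With the haemoglobin-high cells kept, an alternative chosen after seeing the data, the E17.5 level was 8.89 CPM (8.28 to 9.53) in place of 5.53 for Igfbp3 and 1.44 CPM (1.21 to 1.72) in place of 0.863 for Igfbp5, and the other members were within 1.39 times their level. Pairs of libraries shared up to 61 cell barcodes, at most 1.17% of the cells of the smaller library.

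Levels are given in CPM, with the UMIs of a gene and of all genes summed over the epithelial-like cells of a library, and with an exact Poisson 95% interval that covers counting error only. Ratios between libraries carry an exact binomial 95% interval of the counts, also of counting error only. In such sums, fewer cells that express a gene and less RNA per cell cannot be told apart. Shares of cells with a UMI are given after each cell was thinned to 2000 UMIs, with an exact binomial 95% interval, because the libraries differed in depth. A single age before the adult has no replicate, so its level is a description. Change over stage was tested in 6 libraries, the total TEC of E13.5 and all cTEC libraries. They are called the cortical line here, though the E13.5 sort was not cortical. The test was edgeR's quasi-likelihood test of the slope per stage (rank 1 for E13.5 up to rank 5 for the adult) with a term for data set. Lineage was tested in the 4 adult libraries with the same test and term. Wherever an adult library was left out of the lineage fit, the data set term was left out too. The lineage fit had 1 residual degree of freedom, so its p-values rest largely on a variance shared over genes. In the stage fit, with 1 library per age before the adult, the residual also holds departure from a straight line. P-values were adjusted by Benjamini-Hochberg over all genes tested, with a threshold of 0.05. The stage fit called 1035 of 14330 genes (7.22%), of which 648 were higher with stage (4.52%) and 387 lower (2.7%). The lineage fit called 5053 of 15626 genes (32.3%), of which 1752 were higher in cTEC (11.2%) and 3301 lower (21.1%).

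**Figure D1:**
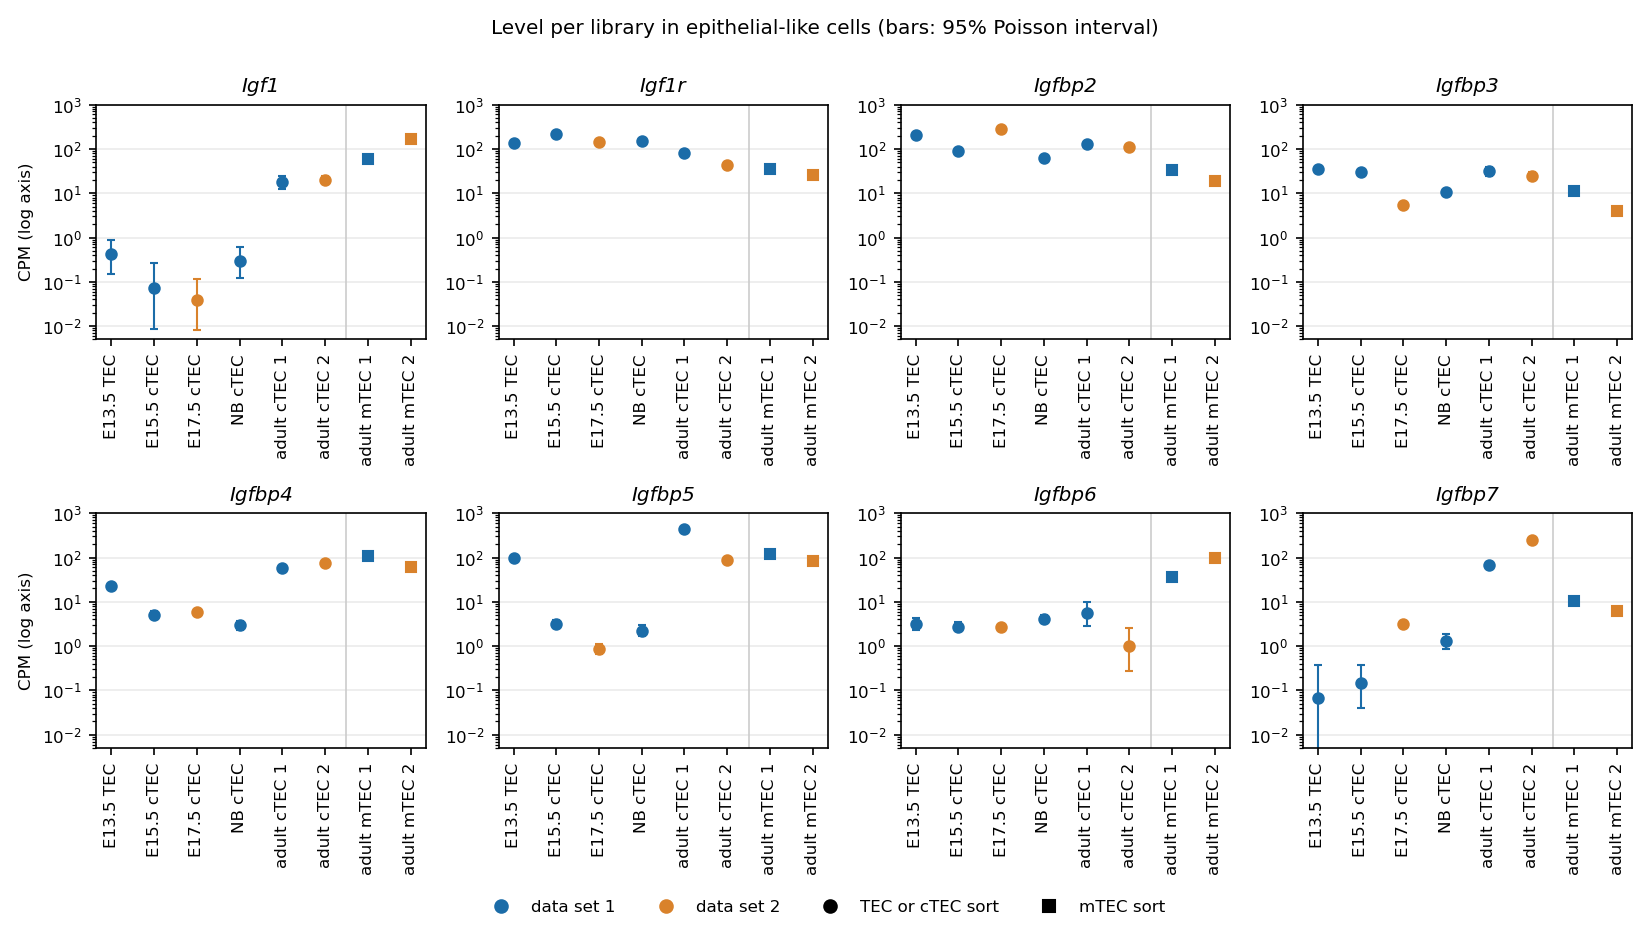
Level of each gene (CPM, log axis) in each library; points are libraries, blue for data set 1 and orange for data set 2, circles for TEC or cTEC sorts and squares for mTEC, and bars are 95% Poisson intervals. Igfbp7 ran from 0.0691 CPM at E13.5 to 247 CPM in adult cTEC replicate 2, while Igf1r ran from 217 CPM at E15.5 down to 25.8 CPM in adult mTEC replicate 2.

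All 8 members passed the low-count filter in both fits. In the stage fit 1 of 8 members was called, Igfbp7, and it was higher with stage, beside 7.22% of all genes called and 4.52% higher. In the lineage fit 5 of 8 were called, beside the 32.3% of all genes called. Among the members 3 were higher and 2 lower in cTEC, beside 11.2% and 21.1% of all genes. Without the data set term the edgeR adjusted p was 0.0284 for Igf1, 0.0153 for Igfbp2, 0.0557 for Igfbp3, 0.0207 for Igfbp6 and 0.0184 for Igfbp7. The median slope of the members was 0.27 log2 per stage beside −0.00097 over all genes tested, and their median lineage difference was 0.91 log2 beside −0.14.

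**Figure D2:**
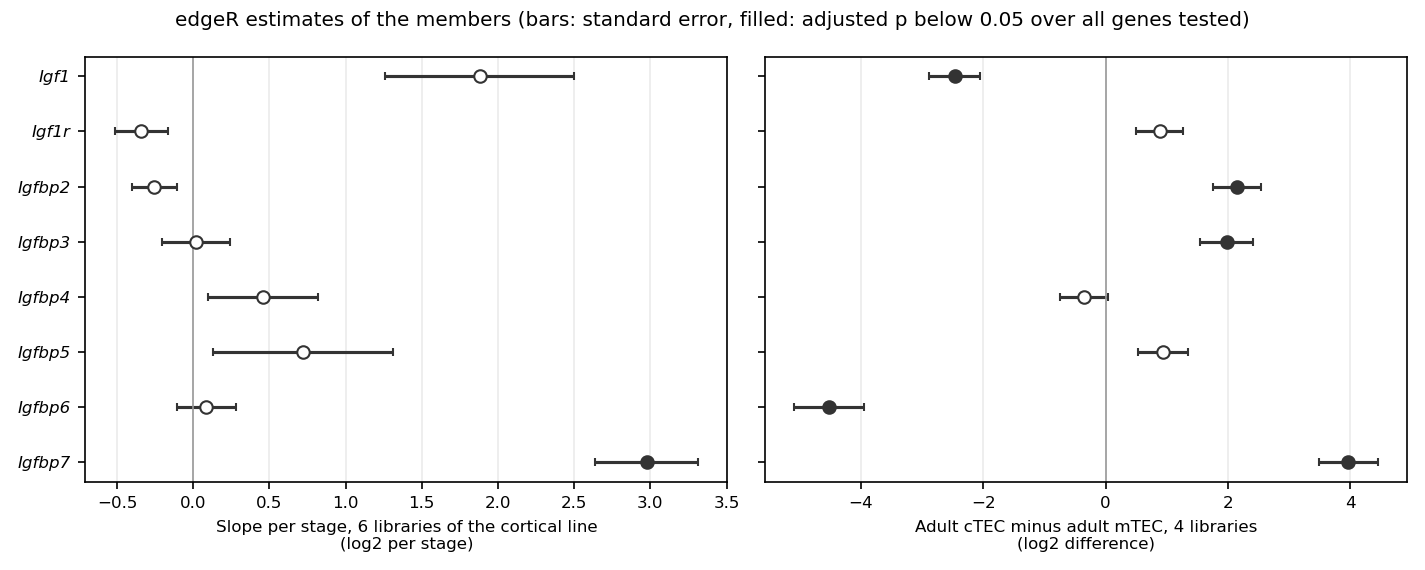
Estimates of edgeR for the 8 genes, with the slope per stage over 6 libraries on the left and adult cTEC minus adult mTEC over 4 libraries on the right, both in log2 units; bars are standard errors and filled points have an adjusted p below 0.05. Igfbp7 is filled on both sides, and Igf1, Igfbp2, Igfbp3 and Igfbp6 on the right.

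Igf1, the ligand, was close to absent from the fetal and NB libraries and was highest in mTEC. E13.5 TEC held 6 UMIs (0.414 CPM), E15.5 cTEC 2 UMIs (0.0728 CPM), E17.5 cTEC 3 UMIs (0.0392 CPM) and NB cTEC 7 UMIs (0.302 CPM). In adult cTEC it was 17.6 CPM (95% interval 12.5 to 24.2, 38 UMIs) in replicate 1 and 20.1 (15.9 to 24.9, 81 UMIs) in replicate 2. In adult mTEC it was 57.8 CPM (54.2 to 61.5) and 163 (160 to 166). The 4 adult libraries thus lay above the 4 earlier ones, and each mTEC library lay above each cTEC library, while the intervals of the 4 earlier libraries overlapped their neighbours in order. The slope per stage was 1.88 log2 (SE 0.62) and did not pass the edgeR test (adjusted p = 0.118). Without the E13.5 library it was 3.87 and passed (adjusted p = 0.00657), and with DESeq2 it was 1.59 and passed (adjusted p = 0.0241). Igf1 was lower in adult cTEC than in adult mTEC by an edgeR difference of −2.47 log2 (SE 0.42, adjusted p = 1.9e-06). The cTEC level was 0.305 of the mTEC level in data set 1 (95% interval 0.214 to 0.421) and 0.123 (0.098 to 0.153) in data set 2, the same direction in both. The call was lost without adult cTEC replicate 1 (adjusted p = 0.126), cTEC replicate 2 (0.104) or mTEC replicate 2 (0.0567).

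The Igf1 UMIs of adult cTEC came from few cells. In replicate 2, 50 of the 81 UMIs were in 1 cell, and the level without that cell was 7.69 CPM. In replicate 1, 16 cells held the 38 UMIs. In cells where Psmb11 or Prss16 was detected, cortical genes that encode a thymoproteasome subunit and a serine protease, the Igf1 level was 11.8 and 2.60 CPM in replicates 1 and 2, and in the other cells it was 34.6 and 126 CPM. Such a UMI does not mark cortical cells alone, since 25.05 and 29.6% of adult mTEC also had 1 or more, beside 66.1 and 79.9% of adult cTEC. The 23 cells of adult cTEC replicate 1 that clustered with mTEC II and mTEC III cells were at 203 CPM, beside 6.65 CPM in the 424 cells of its main cluster. The larger cTEC cluster of replicate 2 was at 6.40 CPM. With cTEC restricted to cells with a Psmb11 or Prss16 UMI, the lineage difference was −4.12 log2. Myeloid markers summed to 394 and 19.8 CPM in adult cTEC (7 and 6 of 8 detected) and to 437 and 520 CPM in adult mTEC (8 of 8), against 0.824 to 3.97 CPM earlier (1 to 6 of 8). Lyz2 was the highest of them in each adult library, Adgre1 was at 0 in both cTEC libraries, and their part in the Igf1 levels was not tested.

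Igf1r, the receptor, was present in every library and was higher in the fetal and NB libraries than in the adult ones. The E13.5 library stood at 137 CPM (131 to 144), the E15.5 library at 217 (212 to 223), the E17.5 library at 142 (140 to 145) and the NB library at 148 (143 to 153). Adult cTEC were at 80.1 CPM (68.6 to 93.0) and 43.1 (36.93 to 49.998), and adult mTEC at 35.6 (32.8 to 38.6) and 25.8 (24.6 to 27.0). E15.5 was the highest, E13.5, E17.5 and NB overlapped their neighbours, and adult cTEC replicate 2 overlapped mTEC replicate 1. The slope of −0.34 log2 per stage (SE 0.17) did not pass the edgeR test (adjusted p = 0.265), though it was −0.61 and passed without E13.5 (adjusted p = 0.0497). Adult cTEC replicate 1 was at 0.542 (0.462 to 0.631) of the NB level within data set 1, and replicate 2 at 0.303 (0.259 to 0.352) of the E17.5 level within data set 2. The difference between adult cTEC and mTEC was 0.89 log2 (SE 0.38), with an adjusted p of 0.0676 in edgeR. After thinning, an Igf1r UMI was found in 24.2% of E13.5 cells, 35.1% of E15.5 cells, 24.3% of E17.5 cells and 24.7% of NB cells, beside 16.1 and 8.06% in adult cTEC and 8.26 and 4.86% in adult mTEC. The unthinned shares ran from 74.6% at E15.5 to 23.4% in mTEC replicate 2. After the same thinning, 21.8% of the parathyroid-like cells of E13.5 and 27.1% of the thymocyte-like droplets of NB had an Igf1r UMI, and the latter also carried cortical RNA. Median depths of those 2 classes were 4255.5 and 8641.5 UMIs, beside 7191 and 6010 in the epithelial-like cells of the same libraries.

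Igfbp2, a binding protein known from fetal tissues and metabolic regulation, moved up and down with age and was higher in adult cTEC than mTEC. E13.5 cells held 204 CPM (197 to 212) and E15.5 cells 90.6 (87.1 to 94.2), while E17.5 cells held 278 (274 to 282) and NB cells 62.7 (59.5 to 66.0). In adult cTEC it reached 127 (113 to 143) and 108 (98.6 to 119) and adult mTEC at 33.7 (31.0 to 36.6) and 19.0 (17.93 to 20.02). Only the adult cTEC replicates overlapped each other in this order. E17.5 was the only library before the adult in data set 2, so its high level cannot be told apart from data set. Within data set 1 the level fell from E13.5 to NB. The slope per stage was −0.25 log2 (SE 0.15, edgeR adjusted p = 0.322). In data set 1 adult cTEC were at 2.03 (1.78 to 2.31) times the NB level, and in data set 2 at 0.390 (0.354 to 0.429) of the E17.5 level, so the direction of the last step depended on the library it was read against. The lineage difference was 2.15 log2 (SE 0.39, edgeR adjusted p = 7.6e-06). Within data sets the ratio of cTEC to mTEC was 3.78 (3.26 to 4.38) and 5.72 (5.12 to 6.39). The call was lost without cTEC replicate 2 (adjusted p = 0.0510) and without mTEC replicate 2 (0.0705). Thinned shares followed the levels, with 33.1% of cells at E13.5, 39.6% at E17.5, 17.3 and 18.0% in adult cTEC and 4.29 and 2.69% in adult mTEC. Parathyroid-like cells of E13.5 had a share of 4.03% and a level of 22.3 CPM.

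Igfbp3, the main carrier of IGFs in serum, showed no direction with stage. E13.5 TEC were at 35.6 CPM (32.6 to 38.9) and E15.5 cTEC at 30.3 (28.3 to 32.4), and E17.5 cTEC were at 5.53 (5.02 to 6.08) and NB cTEC at 10.5 (9.22 to 11.9). Adult cTEC were at 31.5 (24.5 to 39.9) and 24.3 (19.7 to 29.6), overlapping each other and E15.5. Adult mTEC were at 11.3 (9.75 to 13.05) and 3.996 (3.53 to 4.50). The slope was 0.02 log2 per stage (edgeR adjusted p = 0.967). Igfbp3 was higher in adult cTEC than mTEC by 1.98 log2 (SE 0.43, edgeR adjusted p = 0.000188), with ratios of 2.79 (2.08 to 3.69) and 6.07 (4.77 to 7.68) within the data sets. This call was lost without a data set term (adjusted p = 0.0557), without cTEC replicate 1 (0.153), without cTEC replicate 2 (0.136) and without mTEC replicate 2 (0.202). Within E15.5, cells were unequal: the cluster of 1278 cells led by Synpr was at 7.57 CPM, and clusters of 943 cells led by Gper1 and of 786 cells led by the mitotic genes Ube2c and Top2a were at 48.1 and 43.7 CPM.

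Igfbp4, an inhibitory binding protein cut by Pappa, was lowest in the NB library and high in adult cells of both sorts. The E13.5 library stood at 23.2 CPM (20.8 to 25.8), the E15.5 library at 5.13 (4.32 to 6.05), the E17.5 library at 5.91 (5.38 to 6.48) and the NB library at 2.98 (2.32 to 3.77). In adult cTEC it was at 58.4 (48.6 to 69.5) and 73.6 (65.4 to 82.4) and adult mTEC at 107 (102 to 112) and 60.4 (58.5 to 62.3). Every adult library lay above every earlier one, and the sorts overlapped. The adult cTEC level was 19.6 (14.5 to 26.7) times the NB level in data set 1 and 12.4 (10.7 to 14.4) times the E17.5 level in data set 2. The adult cTEC cells with a Psmb11 or Prss16 UMI were at 43.5 and 53.4 CPM and those without at 102 and 196 CPM. The mTEC I genes, which mark the medullary cells where Igfbp4 was highest, summed to 6400 and 1424 CPM in adult cTEC against 552 CPM in NB, and their part in the Igfbp4 level was not tested. The slope over 6 libraries was 0.46 log2 per stage (SE 0.36) and did not pass the edgeR test (adjusted p = 0.460), nor did the slope of 1.22 without E13.5 (adjusted p = 0.0678). The lineage difference was −0.35 log2 (SE 0.39, adjusted p = 0.537), with a ratio of 0.545 (0.452 to 0.654) in data set 1 and 1.22 (1.08 to 1.37) in data set 2. Thinned shares were 4.37% at E13.5, 0.436 to 1.11% from E15.5 to NB, 9.58 and 11.9% in adult cTEC, and 19.8 and 11.5% in adult mTEC.

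Igfbp5, a binding protein that attaches to extracellular matrix, was present at E13.5, near absent from E15.5 to NB and high in the adult. E13.5 cells held 99.2 CPM (94.1 to 104) and E15.5 cells 3.20 (2.57 to 3.94), while E17.5 cells held 0.863 (0.668 to 1.10) and NB cells 2.25 (1.68 to 2.95). The adult cTEC libraries were at 442 (415 to 471) and 90.2 (81.1 to 99.9) and adult mTEC at 120 (115 to 125) and 82.3 (80.2 to 84.5). Replicate 1 of adult cTEC lay far above the others, while E13.5, cTEC replicate 2 and mTEC replicate 2 overlapped their neighbours. From E13.5 to E15.5, where the sort gate also changed, the level went to 0.0323 (0.0257 to 0.0401) of its start. At E13.5, cells with a Psmb11 or Prss16 UMI were at 62.9 CPM and the others at 281 CPM. Adult cTEC were at 197 (149 to 266) times NB in data set 1 and 104 (80.2 to 138) times E17.5 in data set 2. A straight slope does not describe such a course, and it was 0.72 log2 per stage (SE 0.59, edgeR adjusted p = 0.482), or 2.49 without E13.5 (adjusted p = 0.0377). Between adult sorts the difference was 0.94 log2 (SE 0.41, adjusted p = 0.0681), and it rested on 1 library. It was −0.15 without cTEC replicate 1 and 1.95 without cTEC replicate 2 (adjusted p = 0.0391), and the ratio was 3.69 (3.42 to 3.99) in data set 1 and 1.10 (0.982 to 1.22) in data set 2. Replicate 1 was also the cTEC library with Ccl21a at 5398 CPM against 856 CPM in replicate 2, and the part of that in its Igfbp5 level was not tested. Its cells with a Psmb11 or Prss16 UMI were at 425 CPM of Igfbp5 and the others at 494 CPM.

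At E13.5, Igfbp5 was concentrated in 129 cells led by Hhex, Nkx2-1, Lum and Pax8, where 604 of the 1436 UMIs of the library lay. Their level was 680 CPM (626 to 736), and 80.6% of them had a UMI. Hhex, Nkx2-1 and Pax8 are transcription factors of early thyroid, but these cells met the rule for no other class and stayed among the epithelial-like cells. The 263 cells led by Krtdap and Krt5 were at 115 CPM (101 to 130), and the 2 largest clusters at 44.9 and 63.8 CPM. Both of these were above the 3.20 CPM of the E15.5 library. Igfbp2 had another distribution, with 280 and 212 CPM in the largest clusters, 141 CPM in the Hhex cluster and 63.6 CPM in the Krtdap cluster.

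Igfbp6, which prefers IGF-II to IGF-I, was low along the whole cortical line. E13.5 TEC were at 3.18 CPM and E15.5 cTEC at 2.77, and E17.5 cTEC were at 2.64 and NB cTEC at 4.06, and at 5.56 (2.87 to 9.71, 12 UMIs) and 0.991 (0.270 to 2.54, 4 UMIs) in adult cTEC. Adult mTEC were at 35.9 CPM (33.1 to 38.9) and 97.6 (95.2 to 99.9). All 6 cortical-line libraries overlapped their neighbours in order, and both mTEC libraries lay above them. The slope was 0.09 log2 per stage (edgeR adjusted p = 0.815). Igfbp6 was lower in adult cTEC by a difference of −4.52 log2 (SE 0.57, edgeR adjusted p = 8.7e-10), with ratios of 0.155 (0.080 to 0.272) and 0.010 (0.003 to 0.026) within the data sets. The call was lost without cTEC replicate 2 (adjusted p = 0.0755). In mTEC the UMIs sat in few cells: 82.9% and 50.4% of them were in the top 1% of cells of replicates 1 and 2, with up to 104 and 352 UMIs in 1 cell. Correspondingly, 4.04% and 28.0% of cells had a UMI before thinning and 1.70 and 8.79% after it.

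Igfbp7 was the member called over stage. E13.5 TEC held 1 UMI (0.0691 CPM) and E15.5 cTEC 4 UMIs (0.146 CPM), while E17.5 cTEC were at 3.23 CPM (2.84 to 3.66) and NB cTEC at 1.30 (0.874 to 1.85). Adult cTEC were at 68.6 (58.0 to 80.5, 148 UMIs) and 247 (232 to 263, 999 UMIs), and adult mTEC at 10.6 (9.08 to 12.3) and 6.22 (5.64 to 6.85). Both adult cTEC libraries lay above both mTEC libraries, which lay above every earlier library, and E13.5 and E15.5 overlapped each other. The slope per stage was 2.98 log2 (SE 0.34, edgeR adjusted p = 0.00956). Within data set 1 it was 2.82 (adjusted p = 0.0323). The adult cTEC level was 52.9 (35.6 to 81.2) times NB in data set 1 and at 76.6 (66.6 to 88.4) times E17.5 in data set 2. Without adult cTEC replicate 1 the slope was 2.52 and missed the threshold (adjusted p = 0.127), in a fit that called 11 genes in all. With a term for dissociation it was 4.42 (adjusted p = 0.596), where edgeR called 0 genes and 1078 had an unadjusted p below 0.05. Between adult sorts the difference was 3.97 log2 (SE 0.48, edgeR adjusted p = 3.6e-10), with ratios of 6.48 (5.17 to 8.10) and 39.8 (35.4 to 44.7), and it passed with each of the 4 libraries left out in turn.

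The share of cells with an Igfbp7 UMI after thinning was 8.64% (6.16 to 11.7) and 26.9% (23.1 to 30.9) in adult cTEC, at most 0.723% in the 4 earlier libraries, and 1.262 and 1.202% in adult mTEC. Unthinned shares in adult cTEC were 17.6 and 48.4%. In the thymocyte-like droplets of NB, 0 of 166 had a UMI, which allows a share of up to 1.81% by the limit of 3 counts and 2.198% by the exact binomial bound. Among the kept NB cells 30 of 3439 had a UMI before thinning, so these droplets cannot be told apart from them by this gene. In the cTEC of replicate 2, the 468 cells of the main cluster were at 234 CPM, and 28 cells that fell in the mTEC III-like cluster were at 716 CPM (601 to 848). That cluster was led by Bpifa1, a secretory airway gene, and 490 of its 519 cells came from adult mTEC. In replicate 1 the main cluster of 424 cells was at 67.0 CPM and 36 cells of an unnamed cluster led by Bpifa1 were at 135 CPM (88.2 to 198). Cells with a Psmb11 or Prss16 UMI were at 57.2 and 164 CPM and cells without at 102 and 750 CPM, and the slope within the former was 3.01 log2 (edgeR adjusted p = 0.00486).

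Sums of marker genes of other classes also differed between these libraries. Mesenchymal genes summed to 519 and 323 CPM in adult cTEC, against 8.71 to 40.6 CPM earlier and 99.8 and 68.8 CPM in adult mTEC. In adult cTEC 6 of 8 of these genes were detected, Dcn alone gave 499 and 311 CPM, and Pdgfra was at 0 in both libraries. Of this list Dpt was called higher over stage by edgeR, Dcn and Dpt higher in cTEC, and Pdgfrb and Col1a1 lower in cTEC. Endothelial genes (8 of 8) summed to 94.0 and 31.2 CPM in adult cTEC, against 7.02 to 26.2 CPM earlier (5 to 8 of 8) and 41.7 and 29.5 CPM in mTEC. Pecam1 gave 50.03 CPM of the first of these sums. Cdh5 (3.36 log2 per stage, edgeR adjusted p = 0.0267) and Pecam1 (0.73, 0.0358) were called higher over stage, and Emcn (4.85 log2, 2.3e-05) and Kdr (3.92, 0.00212) higher in adult cTEC than mTEC. No other endothelial gene was called in either fit. Egfl7 (−0.63) and Cldn5 (−0.51) had negative slopes, and Cldn5 (−1.55) and Esam (−0.84) were lower in cTEC. Adult cTEC held 9 and 5 UMIs of Cdh5, 12 and 11 of Kdr and 18 and 19 of Emcn. Pecam1 was at 2.72 CPM in adult cTEC replicate 2, beside 11.7 CPM in NB. Mural genes (5 of 7) summed to 576 and 331 CPM in adult cTEC, against 19.1 to 90.8 CPM earlier and 1035 and 536 CPM in mTEC, and the members differed. Rgs5 was at 62.1 and 9.66 CPM in cTEC and 496 and 258 CPM in mTEC, and Tagln at 309 and 179 CPM in cTEC and 206 and 73.5 CPM in mTEC. Acta2 and Tagln were called higher over stage, and Rgs5 and Myh11 lower in cTEC. Kcnj8 and Cspg4 were at 0 in both cTEC libraries. Thymocyte genes (10 of 10) summed to 47.3 and 96.3 CPM in adult cTEC, against 5.93 to 17.9 CPM earlier (4 to 10 of 10) and 29.5 and 30.7 CPM in mTEC (9 and 10 of 10). Genes that respond to dissociation, such as Fos and Jun (10 of 10), summed to 387 to 552 CPM in the fetal libraries, 9856 CPM in NB, 17341 and 9006 CPM in adult cTEC and 7781 and 4019 CPM in adult mTEC. The part of these lists in the Igfbp7 result was not tested.

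**Figure D3:**
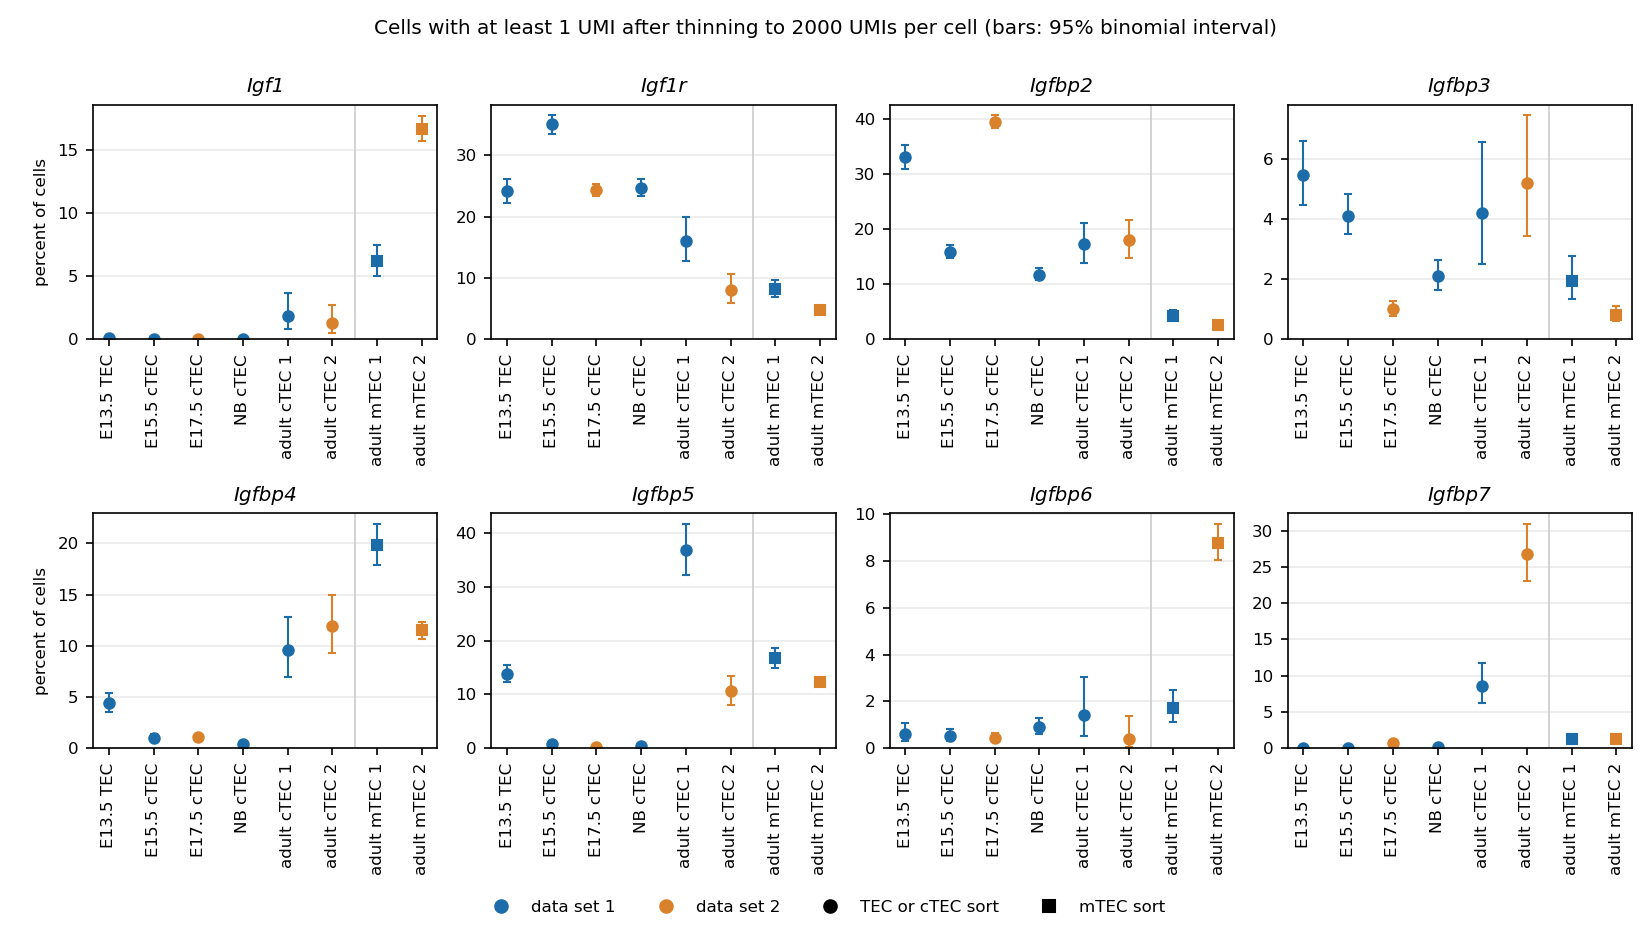
Percent of epithelial-like cells with at least 1 UMI of each gene after thinning to 2000 UMIs per cell, by library, with 95% binomial intervals; colours and shapes are as for the levels. The adult cTEC points of Igfbp7, at 8.64 and 26.9%, stand above all others, and Igf1 and Igfbp6 are highest in mTEC replicate 2 at 16.7 and 8.79%.

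The adult mTEC sort mixes several kinds of cells, and the members divided between them. Clusters were made without the IGF family genes, within each mTEC library here and within each data set for the cTEC clusters above, and were named only where listed markers allowed. They are described without a test. The mTEC I-like clusters had 6, 5 and 6 of the 6 mTEC I markers raised, with Ccl21a at 20292 and 21564 CPM in replicate 1 and 15485 CPM in replicate 2, and also 2 of 7 mural markers each, with Tagln among the 10 leading genes of those with 201 and 810 cells. In these clusters Igfbp4 was at 443 CPM (415 to 472) in 287 cells and 324 CPM (295 to 356) in 201 cells of replicate 1, and at 338 CPM (325 to 352) in 810 cells of replicate 2. Those clusters held 915 and 448 of the 1779 Igfbp4 UMIs of replicate 1 and 2289 of the 4064 of replicate 2, and 77.1 to 84.7% of their cells had a UMI. Igfbp5 was at 196, 397 and 274 CPM in the same clusters. It was also at 324 CPM in the 210 cells of replicate 1 led by Sprr2a3 and Wfdc18, at 210 CPM in 154 tuft-like cells of replicate 2 and at 1049 CPM (969 to 1133) in 100 cells of replicate 2 led by Car8, Speer4c and Ghrl. Igfbp4 in those 100 cells was at 50.8 CPM, so the pair did not go together everywhere.

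Igf1 had the opposite placement. It was at 3.87 and 1.45 CPM in the mTEC I-like clusters of replicate 1 and 26.7 CPM in that of replicate 2. The mTEC III-like cells, which carry keratinocyte genes such as Spink5, were at 312 CPM (281 to 347) in 139 cells of replicate 1 and 541 CPM (518 to 565) in 505 cells of replicate 2. In replicate 2, 720 cells led by Ccl22 and Klk1b26 were at 537 CPM and 93 cells led by Ccl6 and Ccl20 at 676 CPM (619 to 737), with a UMI in 59.6 and 71.0% of cells. Igfbp6 was highest in other clusters, at 142 CPM in the 304 mTEC II-like cells of replicate 1 and 263 CPM in the 1041 Mt4-led cells of replicate 2. Only 8.55% of the former had an Igfbp6 UMI, against 36.2% of the latter.

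Igf1r varied less across these clusters than the ligand did. In replicate 1 it ran from 21.3 CPM in the mTEC II-like cluster to 58.6 and 70.2 CPM in the mTEC I-like clusters, and in replicate 2 it was at 38.0 CPM in the mTEC I-like cluster and 21.9 CPM in the mTEC III-like one. Igfbp2 was also at its highest in an mTEC I-like cluster of replicate 1, at 103 CPM in 201 cells.

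**Figure D4:**
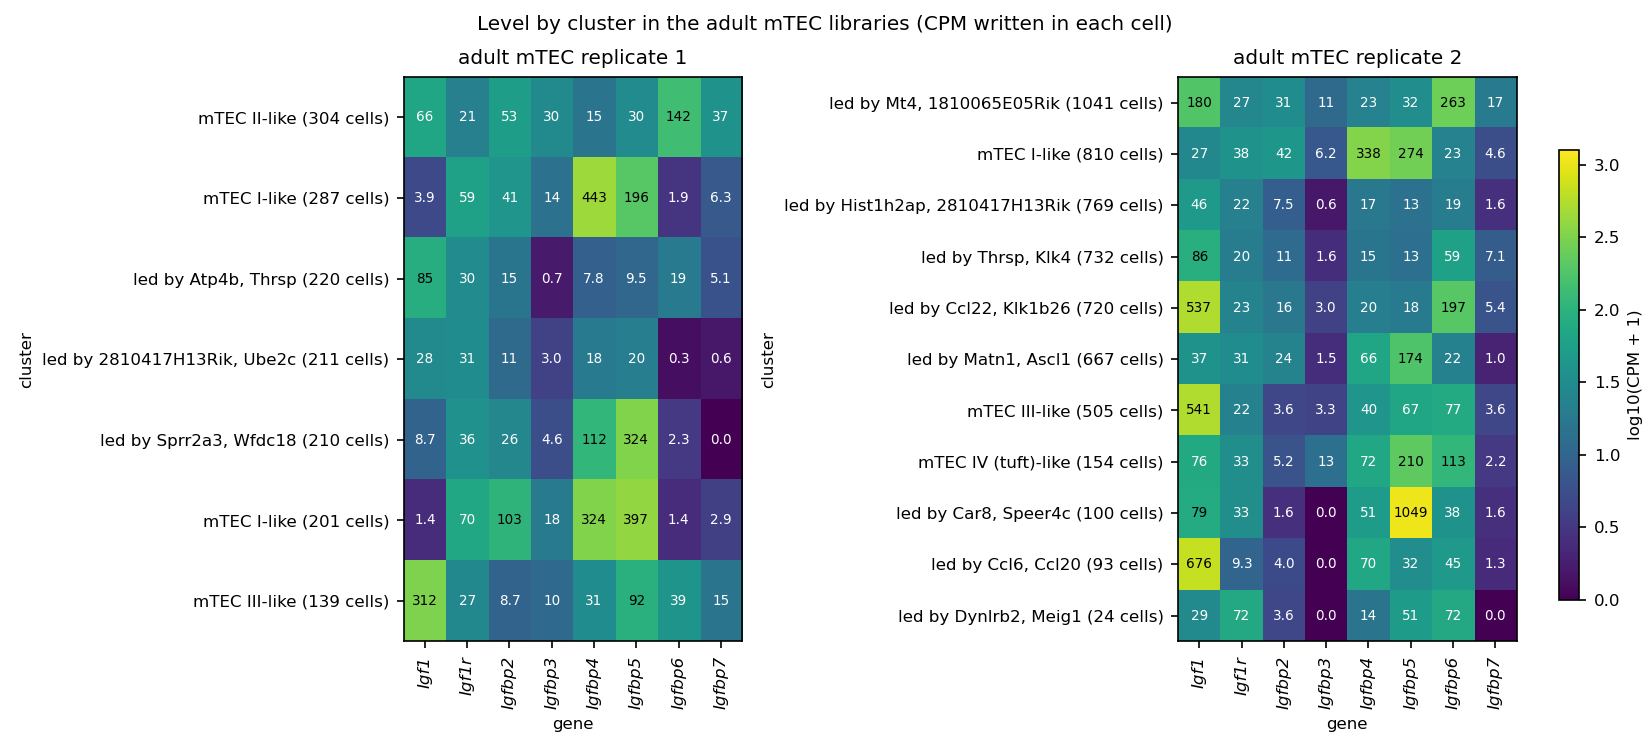
Level of each gene (CPM, written in each square, colour as log10 of CPM + 1) in the clusters of the adult mTEC libraries, replicate 1 on the left and replicate 2 on the right. Igfbp4 and Igfbp5 are bright in the mTEC I-like rows, and Igf1 in the mTEC III-like rows (312 and 541 CPM).

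Other genes of the pathway were read from lists by role. Of 10 other ligands, receptors and binding proteins, 3 were tested in the stage fit and 1 was called, beside 7.22% of all genes. It was the fetal ligand Igf2, which fell by 2.02 log2 per stage (edgeR adjusted p = 0.0182). The E13.5 library stood at 85.8 CPM, the E15.5 library at 4.37, the E17.5 library at 0.0262 and the NB library at 1.17, and both adult cTEC libraries had 0 UMIs. The study named Igf2 as a fetal gene from these samples, so its direction is not independent evidence, and the call was lost without E13.5, without adult cTEC replicate 1 and with the dissociation term. In the lineage fit 7 of the 10 were tested and 5 were called, all lower in cTEC, beside 32.3% of all genes called and 21.1% lower in cTEC. All 5 had at most 3 UMIs in each cTEC library and passed the low-count filter through their mTEC counts. Their shared direction was thus fixed by the filter and is a description only. Igfals, the acid-labile subunit that binds IGF complexes in serum, was at 1.39 and 0.743 CPM in cTEC and 46.5 and 53.8 CPM in mTEC (−5.72 log2, adjusted p = 1.5e-12). Ins2 had 290 and 3992 UMIs in mTEC and 0 in cTEC, and Igfbpl1 97 and 291 UMIs in mTEC and 0 in cTEC. Insrr and Igfbp1 were called at low counts and lost with DESeq2, as was Ins2. With the data set term left out too, all 3 were lost without either cTEC library, and Igfbp1 and Insrr without either mTEC library. Igfbp1 was also lost without the data set term alone, and Igfbp1 and Insrr with cTEC restricted to cells with a Psmb11 or Prss16 UMI. The receptors Igf2r (−0.36 log2) and Insr (−0.47 log2) were not called.

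Of 9 proteases of IGF-binding proteins and inhibitors of such proteases, 7 were tested over stage and 1 was called, beside 7.22% of all genes. It was the serine protease Htra1, which rose by 1.59 log2 per stage (adjusted p = 0.0241), with 0.829 CPM at E13.5 and 55.1 and 12.1 CPM in adult cTEC. That call was lost on leaving out E15.5, E17.5 or either adult cTEC library, in data set 1 alone and with the dissociation term. Between lineages all 9 were tested and 6 were called, beside 32.3% of all genes. Of the 6, 1 was higher and 5 lower in cTEC, beside 11.2% and 21.1% of all genes. Mmp2, a gelatinase, was higher in cTEC (83.4 and 52.8 CPM against 8.36 and 4.75, 3.33 log2, adjusted p = 1.5e-09). Lower in cTEC were Pappa (−4.04), Pappa2 (81 and 372 UMIs in mTEC and 0 in cTEC), Htra1 (−1.35), the Pappa inhibitor Stc1 (−2.004) and the metalloproteinase inhibitor Timp1 (−2.34). Pappa had 79 and 407 UMIs in mTEC and 2 and 0 in cTEC. Pappa and Pappa2 passed the low-count filter through mTEC alone, so their direction was fixed by the filter. DESeq2 did not call Pappa and Stc1, and Htra1 was lost without a data set term. With a library and the data set term both left out, 2 to 5 of the 6 calls were kept. Beside Htra1, the calls lost were Stc1 without either mTEC library or cTEC replicate 2, Pappa without replicate 2 of either sort, Timp1 without cTEC replicate 2 and Pappa2 without mTEC replicate 2.

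Of 29 genes of signalling below the receptor, 2 of 29 tested were called over stage, a share near the 7.22% of all genes called. Both were lower: the adaptor Irs4 by −3.49 log2 per stage (adjusted p = 0.00572), with 25.1 CPM at E13.5 and 0 UMIs from NB onwards, and the adaptor Grb10 by −0.89 (adjusted p = 0.0334), with 177 CPM at E13.5 and 14.4 and 7.43 CPM in adult cTEC. Both calls were lost without E15.5, without adult cTEC replicate 1 and with the dissociation term, Irs4 also without E13.5, and Grb10 also without E17.5, without adult cTEC replicate 2 and in data set 1 alone. Between lineages 28 were tested, 8 were higher in cTEC and 1 lower, beside 11.2% of all genes higher and 21.1% lower. Among the higher ones were the adaptors Irs1 (2.38), Irs2 (1.16) and Gab1 (1.11), the PI3-kinase subunit Pik3r1 (2.002), Rictor of mTORC2 (1.87), the kinase Gsk3b (1.49) and the transcription factor Foxo3 (2.25), all in log2. The adaptor Grb14 was lower (−2.28). The 9 calls of 28 stood beside 32.3% of all genes called, and 2 to 5 of the 9 were kept when a library and the data set term were left out. DESeq2 did not call Foxo1, Gab1, Grb14, Irs1 and Irs2, and Foxo1, Gab1, Grb14 and Irs1 were lost with cTEC restricted to cells with a Psmb11 or Prss16 UMI.

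Genes whose log2 levels followed a member most closely over the 8 libraries were found among 4809 genes at 50 CPM or more in at least 1 library. The 8 points are the same libraries for all genes, so the Pearson r is a description only. For Igf1r they were Col4a2 (r = 0.995) and Parvb (0.988), for Igfbp7 Il33 (0.978) and Myl9 (0.973), and for Igfbp6 Ccl17 (0.995) and Lgals7 (0.994). Igf1 was followed by Fcer1g (0.998) and Ccl9 (0.995), Igfbp4 by Cxadr (0.957) and Cldn4 (0.949), and Igfbp5 by Krt19 (0.959) and Skil (0.949). Igfbp2 was followed by Isoc1 (0.947) and Rab11fip2 (0.929), and Igfbp3 by 2510002D24Rik (0.947) and Wnk1 (0.944).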

How the data were processed

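Single cells of 8 sorted thymic libraries were captured with 10x Chromium v2 chemistry. The authors deposited raw UMI counts per gene and cell, made with Cell Ranger 2.0.1 (STAR 2.5.1b, bcl2fastq 2.17, build mm10) per the labels, though the headers in data set 2 give Cell Ranger 3.0.1. The gene lists held 27998 (data set 1) and 31053 genes. Here the 27514 shared genes were used. Cells over 5% mitochondrial UMIs or 5000 genes were removed, and cells were clustered without the IGF genes (2000 variable genes, 20 components, Leiden resolution 0.8, leidenalg 0.10.2, scikit-learn 1.9.0). Clusters with at least 3 markers and over 50% of the markers of another class at 4-fold or more were left out. No doublet caller was run. Counts were summed per library and tested with edgeR 4.0.16 in R 4.3.3 (TMM scaling, filterByExpr, a data set term) after the code was tested on simulated data. Depth per library limits precision as the intervals show. Alternatives were DESeq2 1.42.0, RLE scaling, other filters, cell sets and left-out libraries. The 8 members were named by symbol, list genes past the threshold were named up to 8 per list and fit, and 2 genes of highest r were named per member. Members and lists were chosen with earlier results of these data known. The study's own comparison results were not used.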

Additional observations from a re-analysis of the deposited data

Results flagged for a closer look

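Igfbp4 differed in opposite directions between the adult sorts of the 2 data sets. The cTEC level was 0.545 (95% binomial interval 0.452 to 0.654) of the mTEC level in data set 1 and 1.22 (1.08 to 1.37) times it in data set 2. This difference between data sets was not tested. The mTEC libraries were at 107 and 60.4 CPM and the cTEC libraries at 58.4 and 73.6 CPM.

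Some members were at higher levels in cells left out of the comparisons than in the cells kept. The 124 parathyroid-like cells of E13.5 were at 156 CPM (126 to 192) of Igfbp4, where the kept cells of that library were at 23.2 CPM. The 1363 haemoglobin-high cells of E17.5 were at 27.9 CPM (25.1 to 30.8) of Igfbp3 and 21.1 CPM (18.8 to 23.7) of Igfbp4, where the kept cells were at 5.53 and 5.91 CPM. Igfbp5, Igfbp6 and Igfbp7 were also higher there, at 4.73, 6.21 and 5.99 CPM against 0.863, 2.64 and 3.23 CPM, and Igf1r and Igfbp2 were lower, at 103 and 209 CPM against 142 and 278 CPM.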

How the results depend on the processing

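Of the members, Igfbp7 kept its direction in both fits under every alternative run. Between adult sorts every member but Igfbp5 kept its direction, though Igf1r and Igfbp4 were not called. The stage fit called 1035 genes, and 2755 with DESeq2, 417 in data set 1 alone, 0 with a dissociation term (edgeR, 1078 at an unadjusted p below 0.05) and 11 to 1156 with a library left out. The fewest were called without adult cTEC replicate 1, 198 without E15.5, 427 without E17.5 and 469 without adult cTEC replicate 2. Of the members, 1 was called there, and 2 with DESeq2, 0 with the dissociation term and 0 to 4 with a library left out. The lineage fit called 5053 genes, and 2604 with DESeq2 and 1613, 2402, 2662 and 2857 without mTEC replicate 2, cTEC replicate 2, mTEC replicate 1 and cTEC replicate 1 (each with no data set term), where 2 to 5 members were called instead of 5.

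With the dissociation term the slopes of several members changed sign, to −0.47 for Igf1, 0.18 for Igf1r, 0.21 for Igfbp2, −0.30 for Igfbp3, −0.66 for Igfbp4 and −1.99 for Igfbp5. The slope of Igfbp3, 0.02, also became −0.0035 without a low-count filter, −0.026 with all cells within the limits, −0.032 with all deposited cells, −0.074 without the data set term, −0.13 in cells with a Psmb11 or Prss16 UMI and −0.16 in data set 1 alone. It was −0.023 with the haemoglobin-high cells kept, an alternative chosen after seeing the data. With a library left out, slopes ran from −0.15 to 0.17 for Igfbp3, −0.32 to 1.22 for Igfbp4, −1.13 to 2.49 for Igfbp5 and −0.042 to 0.22 for Igfbp6, and the lineage difference of Igfbp5 from −0.15 to 1.95. None of the members with a reversed slope was called in the stage fit, and the cause was not tested. Igf1 could not be tested in data set 1 alone or without adult cTEC replicate 1.

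Shares of cells moved with the depth of thinning in 154 of 192 values, since more UMIs per cell give more cells with 1 UMI. The highest level of a member in any cluster moved with clustering resolution in 20 of 64 values. Adult cTEC replicate 1 had the fewest UMIs, where 3 UMIs correspond to 1.39 CPM. Stages before the adult have 1 library each.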
